A study of Homo sapiens with 8 samples.

Results

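Cadherin and epithelial junction genes were followed through differentiation of human embryonic stem cells. The 10 genes were CDH1, CDH2, CDH3, EPCAM, CLDN6, CLDN7, TJP1, GJA1, SNAI2 and ZEB2, taken by name from a table of assembled transcripts. They held 23 of its 96614 transcripts and were 10 of its 20195 named genes. Another 8 transcripts lay in introns of CDH3, TJP1 or ZEB2 without a gene name in the assembly and were not counted. RNA of the H1 line, established human embryonic stem cells, was read as full-length molecules on a PacBio Sequel II instrument, with 2 repeats in each of 4 groups. Undifferentiated cells (hPSC) grew in mTeSR1 on Matrigel. Ectoderm was made in DMEM/F12 with 15% KOSR and 2 µM each of A83-01, PNU-74654 and Dorsomorphin. Endoderm was made in RPMI with WNT3A, 100 ng/ml Activin A and 0.5% FBS. Mesoderm was made in DMEM/F12 with 100 ng/ml VEGF, 100 ng/ml BMP4, 10 ng/ml bFGF and 0.5% FBS, and received 100 ng/ml Activin A for its initial 24 h. The layers were collected after 5 days, and all groups share the single parent line. The labels do not say whether repeats were separate cultures, so p-values measure the spread between these libraries, which may be technical.

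Classical cadherins hold neighbouring cells together by binding the same cadherin on the next cell and are tied to actin through catenins. CDH1 encodes E-cadherin, the cadherin of most epithelia and of pluripotent stem cells, CDH2 encodes N-cadherin, typical of neural and mesenchymal cells, and CDH3 encodes P-cadherin. Claudins seal the tight junctions between epithelial cells, TJP1 (ZO-1) is the scaffold under them, and GJA1 (connexin 43) forms gap junction channels. EPCAM is an epithelial adhesion protein. SNAI2 and ZEB2 encode repressors of epithelial genes that bind E-box motifs and are known from epithelial-mesenchymal transition (EMT), in which cells lose CDH1 and often gain CDH2.

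Promoter windows of 250 bases before a start site were available from RefSeq (GRCh38.p14) for 6 of the 10 genes (CDH2, CLDN6, CLDN7, TJP1, GJA1 and ZEB2), in 11 windows. They were searched for the E-box bound by such repressors, CAGGTG or its reverse complement CACCTG. The motif was present in 2 of the 11 windows and in 17.5% of all 35116 windows of that length. The window before the main CLDN7 start held 4 of them, and 0.122% of all windows held at least 4. The other window with the motif was 1 of 4 TJP1 windows, with 1 copy, and no assembled TJP1 transcript started there. The CLDN7 matches are shown because that window held the most copies. CLDN7 and CLDN6 both had their lowest level in ectoderm, the group with ZEB2 reads, and the CLDN6 window held no copy. A link between ZEB2 and either gene was not tested. All 3 stretches lie on the minus strand of chromosome 17, the motif is in capitals, and the pair of motifs nearest the start is given before the others. A match says only that these letters are there.
CLDN7 chr17:7262479-7262508: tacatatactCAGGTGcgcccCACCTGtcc
CLDN7 chr17:7262596-7262625: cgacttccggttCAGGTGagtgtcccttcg
CLDN7 chr17:7262635-7262664: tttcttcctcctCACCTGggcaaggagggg

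A second sequence is shown because TJP1 transcripts differed in whether they held it. It is a 240-nt exon at chr15:29719777-29720016 on the minus strand, exon 20 of 28 in GENCODE 29, within the coding sequence. Its length is a multiple of 3, and it adds 80 codons without an in-frame stop. The exon is in capitals. The 12 bases on each side, in lower case, are those next to it in the spliced transcript, so they belong to the neighbouring exons.
TJP1 exon: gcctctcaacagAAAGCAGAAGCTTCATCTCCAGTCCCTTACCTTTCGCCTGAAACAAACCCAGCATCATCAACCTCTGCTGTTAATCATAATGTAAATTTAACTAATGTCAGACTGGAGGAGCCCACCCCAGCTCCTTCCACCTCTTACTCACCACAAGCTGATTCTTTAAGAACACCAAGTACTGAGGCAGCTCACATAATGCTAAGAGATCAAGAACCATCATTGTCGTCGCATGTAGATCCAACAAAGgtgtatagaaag

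Libraries held from 503840 to 1180888 reads. Levels are given as read counts and as normalized CPM, which are read counts divided by the library total after TMM scaling, in the unit CPM, with the SD over the 2 repeats. Marker genes followed the labels in part. The 8 pluripotency markers had 3802 to 4059 CPM of the library total in hPSC and stood at 1499 to 1981 in ectoderm, 1791 to 2090 in endoderm and 341 to 380 in mesoderm, with SOX2 at 0 in endoderm and in mesoderm. In endoderm they included TDGF1 (452 and 351 reads) and NANOG (92 and 65), and in ectoderm LIN28A (1038 and 1238). The 8 endoderm markers had 2343 to 2446 CPM in endoderm and at most 15.1 elsewhere. In endoderm that was mostly CER1 (974 and 1181 reads), while SOX17 had 150 and 16 reads and FOXA2 had 3 and 4. Anterior neural markers had 853 to 928 CPM in ectoderm, with SOX1 at 0, and at most 478 elsewhere. Mesoderm markers had 772 to 937 CPM in mesoderm through HAND1 and TBX3, with MIXL1, MESP1 and FOXF1 at 0 there and TBXT at 1 read. The mesoderm libraries also held 11 of 12 amnion and trophoblast markers at 6784 to 7451 CPM, with KRT24 at 0, against 16.5 to 82.0 CPM in the other groups. Fibroblast-like or endothelial markers reached 4555 to 5331 CPM in mesoderm, against 75.1 to 281 CPM elsewhere. That was mostly COL1A1 (1548 and 1880 reads), COL3A1 (549 and 456) and LUM (291 and 334). Of the endothelial markers, PECAM1 and TIE1 were at 0 in mesoderm and CDH5 had 5 and 3 reads. TEK had 14 and 6 reads there, against 51 and 50 in ectoderm. Neural crest markers, a list that includes SNAI2, stood at 375 to 429 CPM in mesoderm and at 34.2 to 187 CPM elsewhere. In mesoderm that was mostly TFAP2A (136 and 166 reads), also on the amnion and trophoblast list, and SNAI2 (42 and 26). FOXD3 was at 0 there, SOX10 had 0 and 1 reads, PAX3 2 and 0, and NGFR 6 and 1. NGFR had 77 and 19 reads in hPSC and 173 and 144 in ectoderm. The part of the cells with these markers in the results below was not tested. The groups also differed in transcript length, with a mean per read, in nt, of 4406 and 4650 (ectoderm), 3765 and 3840 (mesoderm), 3298 and 3114 (hPSC) and 3073 and 2975 (endoderm). The part of this difference in the results was not tested apart from fits in which the length trend was removed.

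Of the 10 genes, 6 passed the test in ectoderm against hPSC, 3 in endoderm and 7 in mesoderm. The test was edgeR's quasi-likelihood test over all 10847 genes that passed a filter on low counts, with Benjamini-Hochberg adjustment at 0.05. The share of all tested genes called was 48.6% in ectoderm (23.8% higher and 24.8% lower), 27.1% in endoderm (13.4% and 13.7%) and 35.2% in mesoderm (17.0% and 18.2%). The share of the 10 genes called was near that background in ectoderm and endoderm and above it in mesoderm, which was not tested. All 10 passed the filter, SNAI2 and ZEB2 through mesoderm or ectoderm alone, so their calls were fixed in part by the filter. Between layers, 7 of the 10 were called in ectoderm against endoderm, 9 in ectoderm against mesoderm and 9 in endoderm against mesoderm, beside 63.1% (33.1% higher and 29.9% lower), 35.5% and 47.1% of all genes. Scaling by library totals alone moved the median of all genes by 0.41 in ectoderm, -0.33 in endoderm and 0.23 in mesoderm against hPSC on the log2 scale. It raised the share of calls that were higher from 49.0% to 66.5% in ectoderm and from 48.2% to 59.0% in mesoderm, and lowered it from 49.5% to 31.8% in endoderm. Between layers that share went from 52.5% to 71.7% in ectoderm against endoderm, from 51.2% to 62.3% in ectoderm against mesoderm and from 49.3% to 28.1% in endoderm against mesoderm. In bulk RNA, fewer cells of a type and less RNA per cell cannot be told apart.

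**Figure D1:**
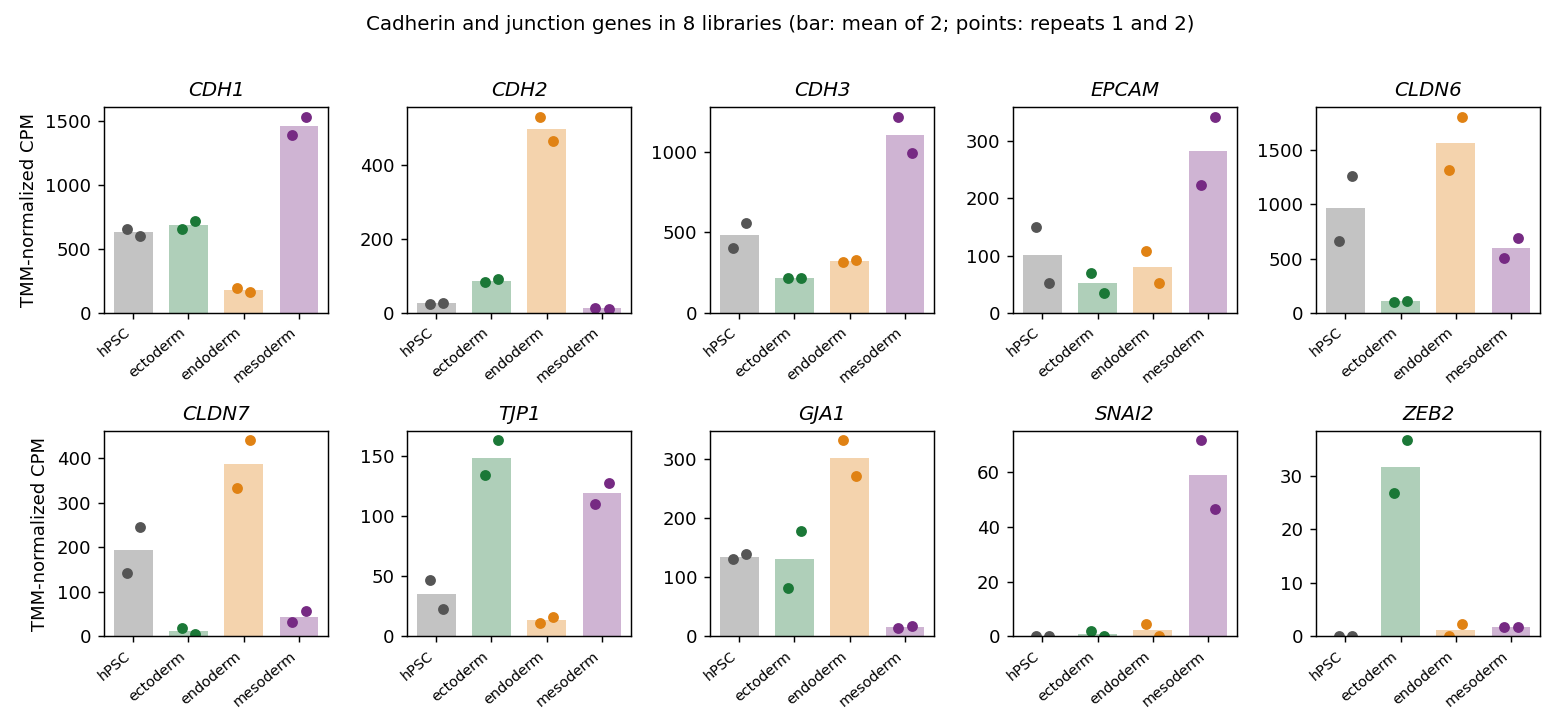
TMM-normalized CPM of the 10 genes (y axis, linear, its own scale in each panel) in hPSC, ectoderm, endoderm and mesoderm. Bars are means and points the 2 repeats. CDH1 and CDH3 were highest in mesoderm, CDH2, CLDN6, CLDN7 and GJA1 in endoderm, and TJP1 and ZEB2 in ectoderm.

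CDH1 fell in endoderm and rose in mesoderm. The gene was represented by a single transcript of 16 exons that matched ENST00000261769 (chr16:68737292-68835537, plus strand). It had 360 and 286 reads (hPSC), 973 and 883 (ectoderm), 88 and 69 (endoderm) and 818 and 862 (mesoderm). Normalized CPM stood at 629 ± 37.5 (hPSC), 684 ± 46.7 (ectoderm), 178 ± 22.7 (endoderm) and 1462 ± 102 (mesoderm), as mean ± SD with n = 2. Endoderm libraries were lowest, mesoderm libraries highest, and neither overlapped another group. The log2 fold change was -1.82 ± 0.30 (SE) in endoderm against hPSC (adjusted p = 0.000468) and 1.22 ± 0.29 in mesoderm (adjusted p = 0.00436). In ectoderm it was 0.12 ± 0.28 (adjusted p = 0.748), so the hPSC and ectoderm levels did not differ beyond their spread. With the length trend removed that value was -0.39. Mesoderm exceeded ectoderm by 1.10 ± 0.28 on the log2 scale (adjusted p = 0.00774), a call lost without ectoderm repeat 1, ectoderm repeat 2 or mesoderm repeat 2.

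CDH2 had its highest level in endoderm, where CDH1 was lowest. Its single transcript of 16 exons matched ENST00000269141 (chr18:27950965-28177130, minus strand). Its reads were 13 and 13 (hPSC), 124 and 111 (ectoderm), 241 and 198 (endoderm) and 8 and 6 (mesoderm). The groups did not overlap, although mesoderm and hPSC were both low. In normalized CPM the level was 499 ± 47.1 in endoderm, 86.6 ± 5.08 in ectoderm, 25.5 ± 2.62 in hPSC and 12.1 ± 2.06 in mesoderm (SD, n = 2). CDH2 rose by 4.28 ± 0.35 (SE) on the log2 scale in endoderm (adjusted p = 9.57e-07) and by 1.76 ± 0.35 in ectoderm (adjusted p = 0.000832). In mesoderm its log2 fold change was -1.05 ± 0.45 (adjusted p = 0.0829). Endoderm also exceeded ectoderm by 2.53 ± 0.29 on that scale (adjusted p = 4.63e-06).

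CDH1 and CDH2 reads shifted against each other between groups. CDH1 took 96.5% and 95.7% of the reads of both genes in hPSC, 88.7% and 88.8% (ectoderm), 26.7% and 25.8% (endoderm), and 99.0% and 99.3% (mesoderm). Endoderm was thus the group in which CDH2 reads outnumbered CDH1 reads. Per kilobase of transcript the mean share of CDH1 was 95.3% (hPSC), 86.8% (ectoderm), 23.0% (endoderm) and 99.0% (mesoderm). Pearson's r of log2 CPM between the genes was -0.93 over the 8 libraries, which are 4 pairs that share groups and depth.

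**Figure D2:**
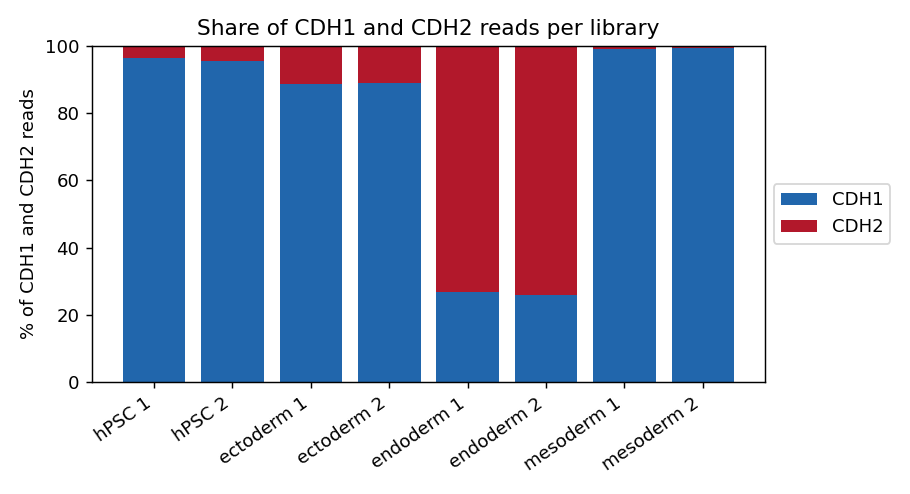
Share of CDH1 (blue) and CDH2 (red) in the summed reads of both genes (y axis, percent) in each of the 8 libraries (x axis). CDH2 is the larger part in endoderm repeats 1 and 2, where CDH1 is 26.7% and 25.8%.

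CDH3 rose in mesoderm and was lower in ectoderm than in hPSC. It had 222 and 264 reads (hPSC), 318 and 269 (ectoderm), 142 and 140 (endoderm) and 717 and 559 (mesoderm). Means of normalized CPM were 480 ± 107 (hPSC), 216 ± 4.03 (ectoderm), 321 ± 11 (endoderm) and 1106 ± 158 (mesoderm) (SD, n = 2). On this scale the mesoderm libraries were highest and the ectoderm libraries lowest. CDH3 rose by 1.21 ± 0.29 (SE, log2) in mesoderm (adjusted p = 0.00529) and fell by 1.15 ± 0.30 on the log2 scale in ectoderm (adjusted p = 0.00502). The ectoderm call was lost without either ectoderm repeat (adjusted p = 0.0585 and 0.0598) and with the trend on GC content removed (adjusted p = 0.108). Endoderm did not differ from hPSC beyond the spread (-0.58 ± 0.30, adjusted p = 0.167), though this value passed the threshold without hPSC repeat 1 and with library totals. Nor did ectoderm differ from endoderm (-0.58 ± 0.30, adjusted p = 0.103), a difference whose sign turned to 0.19 when library totals were used. It passed the threshold with the length trend removed and with ectoderm and endoderm alone in the fit.

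CLDN6, a claudin of pluripotent and early embryonic epithelia, fell in ectoderm. Its transcript of 2 exons matched ENST00000328796 (chr16:3014709-3018183, minus strand). It had 362 and 602 reads (hPSC), 152 and 130 (ectoderm), 599 and 771 (endoderm) and 295 and 390 (mesoderm). The normalized CPM was 963 ± 430, 104 ± 2.74, 1568 ± 347 and 598 ± 136 in the same order (SD, n = 2). Ectoderm was below every other library, while hPSC overlapped mesoderm and lay below endoderm. The log2 fold change in ectoderm was -3.21 ± 0.38 (SE, adjusted p = 1.63e-05). It was 0.70 ± 0.35 in endoderm (adjusted p = 0.145) and -0.69 ± 0.35 in mesoderm (adjusted p = 0.138). The endoderm value passed the threshold without hPSC repeat 2, which stood at 1267 normalized CPM. The mesoderm value did so without hPSC repeat 1, which stood at 659. Endoderm exceeded mesoderm by 1.39 ± 0.35 (adjusted p = 0.00466), a call lost with the length or the GC trend removed and without mesoderm repeat 1.

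CLDN7, a claudin of many epithelia, fell in ectoderm and in mesoderm. It had 78 and 117 reads (hPSC), 27 and 7 (ectoderm), 151 and 187 (endoderm) and 19 and 32 (mesoderm). Normalized CPM stood at 194 ± 73.8, 11.9 ± 8.75, 387 ± 75.1 and 44.6 ± 17.4 in that order (SD, n = 2). The 4 groups did not overlap. Its log2 fold change was -3.97 ± 0.47 (SE) in ectoderm (adjusted p = 1.85e-05) and -2.12 ± 0.45 in mesoderm (adjusted p = 0.00195). The value in endoderm was 1.00 ± 0.40 (adjusted p = 0.0742), and it passed the threshold without hPSC repeat 2 and without the filter. The mesoderm call was lost without mesoderm repeat 1 (adjusted p = 0.0593).

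The length of these transcripts bears on the ectoderm values. CLDN6 and CLDN7 reads came from transcripts of 1369 and 1517 nt, short against the mean per read of every library. With the length trend removed from each library, the log2 fold change in ectoderm was -2.04 for CLDN6 and -2.87 for CLDN7, and both stayed called. In mesoderm CLDN6 was then at -0.08. Pearson's r of the log2 CPM of CLDN6 and CLDN7 over the 8 libraries was 0.94. CLDN6 made up 83% ± 1.03 of the reads of both genes in hPSC, 89.9% ± 7.05 (ectoderm), 80.2% ± 0.434 (endoderm) and 93.2% ± 1.08 (mesoderm) (SD, n = 2).

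EPCAM rose in mesoderm, with repeats that differed widely. Reads numbered 82 and 25 (hPSC), 105 and 43 (ectoderm), 49 and 22 (endoderm) and 132 and 193 (mesoderm). In normalized CPM the level was 101 ± 68.3, 52.6 ± 25, 80.0 ± 39.9 and 284 ± 84.2 in that order (SD, n = 2). Only the mesoderm libraries stood apart, and the other 3 groups overlapped. The log2 rise in mesoderm was 1.48 ± 0.46 (SE) with an adjusted p of 0.0222, and the call was lost without mesoderm repeat 1 or 2 (adjusted p = 0.0545 and 0.196). EPCAM did not pass the test in ectoderm (-0.94 ± 0.47, adjusted p = 0.111) or endoderm (-0.34 ± 0.50, adjusted p = 0.654). Its ectoderm value turned to 0.09 with the length trend removed and passed the threshold without hPSC repeat 2 (-1.42, adjusted p = 0.00118).

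TJP1 rose in ectoderm and in mesoderm. It had 26 and 11 reads (hPSC), 201 and 201 (ectoderm), 5 and 7 (endoderm) and 65 and 72 (mesoderm). Both layers that rose lay above hPSC in every library, and endoderm lay below. Means of normalized CPM were 35.2 ± 17.1, 149 ± 20.3, 13.7 ± 3.83 and 119 ± 12.5 in that order (SD, n = 2). The log2 fold change was 2.05 ± 0.36 (SE) in ectoderm (adjusted p = 0.000338), 1.73 ± 0.37 in mesoderm (adjusted p = 0.00212) and -1.37 ± 0.50 in endoderm (adjusted p = 0.0526). The endoderm value passed the threshold with upper-quartile scaling, with library totals and without hPSC repeat 2. Ectoderm and mesoderm did not differ beyond the spread (0.32 ± 0.31, adjusted p = 0.452). TJP1 reads came from transcripts of 7484 nt on average, long against the mean per read of every library. With the length trend removed the log2 fold change was 1.12 in ectoderm (adjusted p = 0.0183) and 1.29 in mesoderm (adjusted p = 0.0115), and both stayed called.

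GJA1, a widely expressed connexin, fell in mesoderm. Its transcript of 2 exons matched ENST00000282561 (chr6:121435646-121449727, plus strand). Reads were 72 and 66 (hPSC), 123 and 219 (ectoderm), 150 and 115 (endoderm) and 8 and 10 (mesoderm). The normalized CPM was 135 ± 5.6, 130 ± 67.6, 301 ± 43.0 and 15.7 ± 2.97 in that order (SD, n = 2). Mesoderm was below every other library, and the 2 ectoderm repeats lay on either side of hPSC. The log2 fold change was -3.09 ± 0.46 (SE) in mesoderm (adjusted p = 0.000107) and 1.16 ± 0.36 in endoderm (adjusted p = 0.0259). The endoderm call was lost with library totals (adjusted p = 0.105) and without endoderm repeat 1 or 2 (adjusted p = 0.134 and 0.0619). In ectoderm it was -0.06 ± 0.35 (adjusted p = 0.910), of either sign among the scalings, and -1.19 with the trend on GC content removed (adjusted p = 0.0130). Across the 8 libraries GJA1 and CDH1 had a Pearson's r of -0.87.

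**Figure D3:**
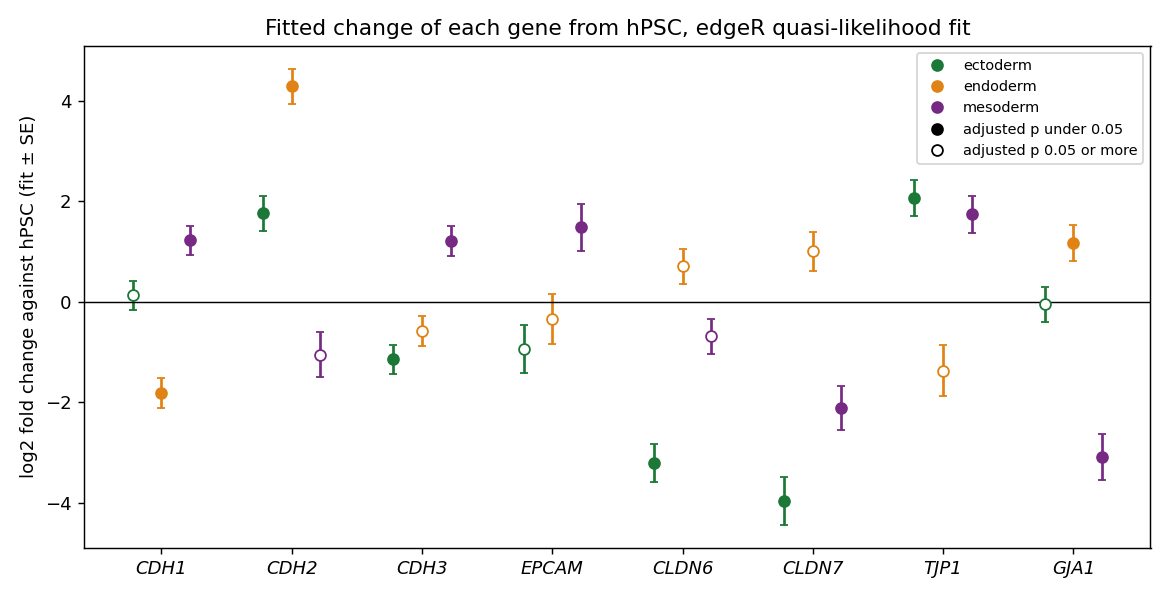
Log2 fold change against hPSC (y axis, fitted value ± SE) of 8 of the genes (x axis) in ectoderm, endoderm and mesoderm. Filled points passed an adjusted p of 0.05, and SNAI2 and ZEB2 are left out because hPSC had no reads of them. CDH2 in endoderm (4.28) is the highest point and CLDN7 in ectoderm (-3.97) the lowest.

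The repressors SNAI2 and ZEB2 were each read in a different layer. SNAI2 had 0 and 0 reads (hPSC), 3 and 0 (ectoderm), 2 and 0 (endoderm) and 42 and 26 (mesoderm). ZEB2 had 0 and 0 reads (hPSC), 40 and 45 (ectoderm), 0 and 1 (endoderm) and 1 and 1 (mesoderm). Against a floor of 3 counts over both hPSC libraries, on TMM-scaled library totals, SNAI2 was at least 20.2-fold higher in mesoderm (adjusted p = 0.000109) and ZEB2 at least 10.6-fold higher in ectoderm (adjusted p = 0.000147). The ratio of pooled normalized CPM for SNAI2 in mesoderm to that in ectoderm was 53.7 (95% interval 17.6 to 267, counting error only). For ZEB2 in ectoderm it was 17.9 times that in mesoderm (4.82 to 151). No fold is given for the pairs of groups with 3 reads or fewer on each side. Normalized CPM stood at 58.8 ± 17.8 for SNAI2 in mesoderm and 31.7 ± 6.92 for ZEB2 in ectoderm (SD, n = 2). CDH1 was highest in mesoderm, where SNAI2 was read, and in endoderm, where CDH1 was lowest, SNAI2 and ZEB2 together had 3 reads. A link between these levels was not tested, and bulk RNA does not show whether the same cells held both.

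Transcript choice was examined in the genes with more than 1 named transcript. Of 2629 genes with at least 2 tested transcripts, 5.63% were called in ectoderm against hPSC, 5.06% in endoderm and 7.00% in mesoderm. CDH3, CLDN7 and TJP1 could be tested, and none passed in any layer by diffSpliceDGE, with 1 of the 9 tests at an unadjusted p under 0.05. That was CDH3 in ectoderm, with an edgeR diffSpliceDGE adjusted p of 0.174. The 3 TJP1 transcripts in these tests all lacked the 240-nt exon, so the tests could not register a change in its share. With a minimum count of 5, 6 TJP1 transcripts entered, and the diffSpliceDGE adjusted p ran from 0.548 to 0.833. EPCAM had a spliced transcript with 98.1% to 99.4% of its reads per group, beside a single-exon record.

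The shorter CDH3 transcript, ENST00000429102, took 9.05% of the gene's reads in hPSC, 16.7% (ectoderm), 14.5% (endoderm) and 13.4% (mesoderm), with repeats pooled. The longer, ENST00000264012, took the rest. Both have 16 exons and differ in their start and end (chr16:68644993-68699036 and chr16:68645294-68700292). Tested on their own, beside 45.9%, 26.8% and 32.8% of all transcripts called in ectoderm, endoderm and mesoderm, the longer fell in ectoderm (-1.08 ± 0.29, adjusted p = 0.00682). The shorter was at -0.06 ± 0.38 there (adjusted p = 0.907). Both rose in mesoderm, the shorter by 1.91 ± 0.37 and the longer by 1.27 ± 0.29.

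CLDN7 was read from both of its RefSeq starts. The transcript from the start with the E-boxes shown above, ENST00000360325, had 73 and 113 reads (hPSC), 25 and 6 (ectoderm), 136 and 169 (endoderm) and 17 and 27 (mesoderm). The transcript from the upstream start, ENST00000397317 (chr17:7260135-7263213), had 5 and 4 reads (hPSC), 2 and 1 (ectoderm), 15 and 18 (endoderm) and 2 and 5 (mesoderm). Its share of CLDN7 reads was 4.62% (hPSC), 8.82% (ectoderm), 9.76% (endoderm) and 13.7% (mesoderm). The window before that start held no such E-box. The upstream transcript rose in endoderm (2.01 ± 0.53, adjusted p = 0.0105) and the main one was at 0.87 ± 0.40 (adjusted p = 0.118), and the test of the difference between them gave an adjusted p of 0.339. CLDN7 overlaps the end of ELP5 on the opposite strand, and whether the counting used strand is not given in the sources used here.

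TJP1 was split over 7 transcripts, of which 3 contained the 240-nt exon. Reads with the exon numbered 2 of 26 and 4 of 11 in the hPSC repeats, 12 and 20 of 201 each in ectoderm, 0 of 5 and 0 of 7 in endoderm, and 19 of 65 and 21 of 72 in mesoderm. The pooled share was 29.2% in mesoderm (exact 95% interval 21.7 to 37.6) and 7.96% in ectoderm (5.51 to 11.1), and the interval in hPSC, 6.19 to 32.0, overlapped both. These intervals cover counting error only. An exact permutation test, which enumerated all 105 ways to split the 8 libraries in pairs, gave p = 0.210, where 0.00952 is the smallest possible. That exact permutation test gave p = 0.00952 and 0.0286 without hPSC repeat 1 or 2, whose shares were 7.69% and 36.4%, and p = 0.210 to 0.295 without any one of the other libraries. The 0 of 12 reads in endoderm allow up to 26.5%. A 57-nt exon (chr15:29800646-29800702) was absent from 1 of the 7 transcripts, with 50 of 588 reads.

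**Figure D4:**
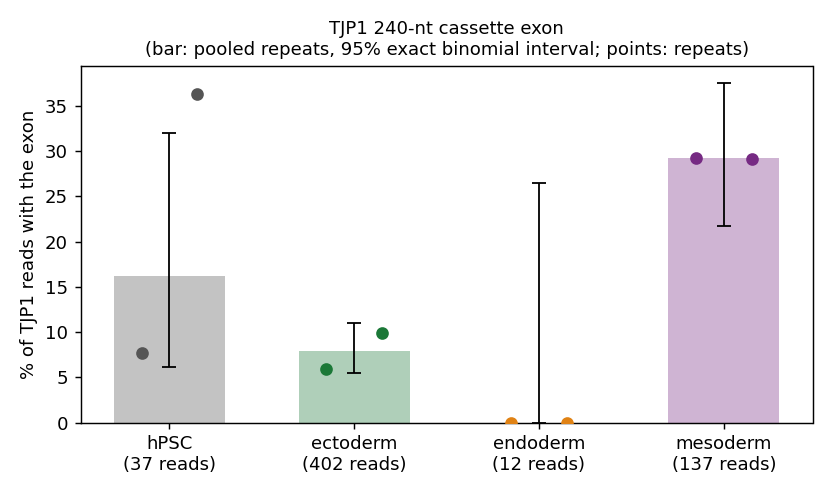
Percent of TJP1 reads with the 240-nt exon (y axis) in hPSC, ectoderm, endoderm and mesoderm, with the number of reads in brackets. Bars are pooled repeats with exact 95% binomial intervals and points the 2 repeats. The mesoderm repeats lie near 29.2%, the ectoderm repeats at 5.97% and 9.95%, and the hPSC repeats at 7.69% and 36.4%.

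ZEB2 was read in ectoderm from 5 named transcripts. ENST00000627532, with 10 exons (chr2:144387645-144520119, minus strand), had 25 and 23 of the 40 and 45 reads, a pooled share of 56.5%. ENST00000472146, with 3 exons, had 3 and 13 reads (18.8%), and the single-exon ENST00000628473 had 5 and 4 (10.6%). The ZEB2 total therefore holds reads from shorter forms of the gene beside the 10-exon form. No transcript named for its antisense neighbour ZEB2-AS1 was among those counted.

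Patterns over the 8 libraries were compared with those of all other tested genes by Pearson's r of log2 CPM, without a test, since the libraries are pairs of 4 groups and share depth. Genes most like CDH1 were SLC25A37, BID and IGDCC3 (r = 0.99 for each), and those most like CDH2 were RBM8A (0.99), PHF8 (0.99) and SUSD6 (0.98). CDH3 resembled SPP1, RUBCNL and WWC3 (0.98 each). EPCAM had its nearest in NOL9 (0.96), HPS6 (0.95) and NCK2 (0.95). For CLDN6 they were ETS1, SLC25A6 and PDLIM1, and for CLDN7 IMPDH1, EIF3I and TUBB2A (0.99 each). TJP1 was nearest to MPDZ, EIF3J and PCNX4 (0.99 each), of which MPDZ encodes a tight junction scaffold. GJA1 was nearest to LIN28A (0.98), EXTL3 (0.98) and OTX2 (0.97), SNAI2 to NOG (1.00), CDKN2B (0.99) and TFAP2A (0.99), and ZEB2 to CENPE (0.99), TBC1D32 (0.98) and DLK1 (0.98).

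Other cadherin and catenin genes also changed. The counts of each list below stand beside the 48.6%, 27.1% and 35.2% of all tested genes called in ectoderm, endoderm and mesoderm, and many of them moved when a single library was left out. Of 16 tested in a list of 25, 5 rose and 1 fell in ectoderm, 2 rose and 3 fell in endoderm, and 8 rose and 4 fell in mesoderm. The median log2 fold change was 0.42, 0.02 and 0.88, against -0.01, -0.13 and 0.01 over all genes, and 0.33, 0.05 and 1.20 with genes at 0 in a group set to their bound. The median in endoderm was -0.10 with library totals. In ectoderm 8 rose and 2 fell without hPSC repeat 2, 8 rose and 1 fell with library totals, and 3 rose and 1 fell with the length trend removed. In endoderm 1 rose and none fell without endoderm repeat 1, and 1 rose and 1 fell without repeat 2. In mesoderm 4 rose and 3 fell without mesoderm repeat 2 and by DESeq2, and 3 rose and 3 fell with mesoderm and hPSC alone in the fit. CDH6, a cadherin of the early nervous system, had 67 and 51 reads in ectoderm and none in any other library, at least 14.8-fold higher than hPSC on TMM-scaled totals. It passed the filter on low counts through ectoderm alone, so its call there was fixed in part by the filter. JUP, or plakoglobin, which links cadherins and desmosomes to the cytoskeleton, rose by 2.21 ± 0.32 in endoderm (adjusted p = 0.000133). By the same edgeR test it also rose in mesoderm (1.34, adjusted p = 0.00412). NECTIN1, a nectin of adherens junctions, fell by 2.73 ± 0.40 on the log2 scale in mesoderm (adjusted p = 0.000100). In endoderm NECTIN1 was also called lower by edgeR (-1.35 ± 0.36, adjusted p = 0.0114). VCL, the actin linker vinculin, fell by 1.17 ± 0.31 on the log2 scale in ectoderm (adjusted p = 0.00601), a call lost without ectoderm repeat 1. By the same edgeR test VCL was also called lower in mesoderm (-1.57, adjusted p = 0.00148) and endoderm (-0.90, adjusted p = 0.0442).

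Among 20 tested tight junction genes of a list of 30, 9 rose and 4 fell in ectoderm, 1 rose and 6 fell in endoderm, and 7 rose and 2 fell in mesoderm. Their median log2 fold change was 0.75, -0.81 and 0.30. In ectoderm 5 rose and 2 fell with the length trend removed, 6 rose and 3 fell with the GC trend removed, and 6 rose and 2 fell with ectoderm and hPSC alone in the fit. In endoderm 3 rose and 6 fell without hPSC repeat 1 (median -0.08), 4 rose and 9 fell without hPSC repeat 2, and 1 rose and 4 fell without either endoderm repeat. In mesoderm 6 rose and 4 fell without hPSC repeat 2. CLDN10 had 27 and 31 reads in hPSC and none in endoderm, at least 16.6-fold lower (adjusted p = 9.05e-05). CLDN4 fell by 4.18 ± 0.57 on the log2 scale in endoderm (adjusted p = 7.96e-05). F11R, the junctional adhesion molecule JAM-A, rose there by 1.08 ± 0.32 (adjusted p = 0.0219), a call lost without either endoderm repeat and with endoderm and hPSC alone in the fit.

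Of 7 tested desmosome genes in a list of 10, 6 rose in ectoderm, 2 in endoderm and 6 in mesoderm, and none was called lower. Without hPSC repeat 2, 5 rose and 1 fell in ectoderm and 2 rose and 1 fell in endoderm. With library totals 1 fell in endoderm, and in both of these fits the median there turned from 0.32 to -0.05. Without hPSC repeat 1, 5 rose in endoderm (median 1.83). In ectoderm 2 rose with the length trend removed, 4 with the GC trend removed, 4 without ectoderm repeat 1, 3 without ectoderm repeat 2 and 3 with the 2 groups alone. DSP, or desmoplakin, had 28 and 16 reads (hPSC), 416 and 379 (ectoderm), 57 and 49 (endoderm) and 318 and 354 (mesoderm). It rose by 2.78 ± 0.33 in ectoderm, 1.5 ± 0.35 in endoderm and 3.77 ± 0.34 in mesoderm on the log2 scale (adjusted p = 1.92e-05, 0.00502 and 1.01e-06). PKP2, the desmosomal plaque protein plakophilin 2, rose by 4.25 ± 0.36 in mesoderm (adjusted p = 5.22e-07). Of 15 other connexin and pannexin genes 3 could be tested, of which GJA5 fell in ectoderm (named after its value was seen) and GJC1 in endoderm. The GJA5 call was lost without hPSC repeat 2, without either ectoderm repeat and with ectoderm and hPSC alone in the fit. GJC1, connexin 45, fell by 1.96 ± 0.51 on the log2 scale (adjusted p = 0.0102), a call lost without hPSC repeat 1, without either endoderm repeat and with matching transcripts alone.

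Of 16 tested regulators and surface partners of the epithelial state in a list of 18, 2 rose and 7 fell in ectoderm, 3 rose and 5 fell in endoderm, and 7 rose and 1 fell in mesoderm. The median was -0.48, 0.17 and 0.61, and 0.35 in endoderm with genes at 0 in a group set to their bound. In ectoderm 2 rose and 3 fell without either ectoderm repeat (medians 0.03 and 0.38), 4 rose and 5 fell without hPSC repeat 1, 4 rose and 6 fell without hPSC repeat 2, 3 rose and 3 fell with the GC trend removed, 4 rose and 4 fell with library totals, and 2 rose and 4 fell with the length trend removed (median 0.01). In endoderm 1 rose and 1 fell without either endoderm repeat, 2 rose and 2 fell with the 2 groups alone, and the median was -0.02 with library totals. In mesoderm 5 rose and none fell without mesoderm repeat 1, 4 rose and 1 fell without mesoderm repeat 2, and 4 rose with the 2 groups alone. GRHL2, which activates CDH1 and claudin genes, had 11 and 15 reads in hPSC, 1 and 2 in endoderm, and 57 and 39 in mesoderm. The ratio of pooled normalized CPM in hPSC to endoderm was 7.43 (95% interval 2.28 to 38.4, adjusted p = 0.00659), and the call was lost without endoderm repeat 1. A link between GRHL2 and CDH1 or the claudin genes was not tested. CD9, a tetraspanin that associates with EPCAM, fell by 6.07 ± 0.48 on the log2 scale in ectoderm (adjusted p = 3.41e-07).

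Among 8 tested EMT factors and mesenchymal genes of a list of 15, 2 rose and 5 fell in ectoderm, 6 rose in endoderm and 6 rose in mesoderm. Their median log2 fold change was -0.99, 2.34 and 2.44. In ectoderm 1 rose and 1 fell without ectoderm repeat 2, and 2 rose and 3 fell with library totals or the GC trend removed. In endoderm 1 fell with upper-quartile scaling, with library totals and without hPSC repeat 2, and in mesoderm 1 fell without hPSC repeat 1 and without the filter. VIM, the intermediate filament vimentin, rose by 3.47 ± 0.35 in endoderm (adjusted p = 5.73e-06) and fell by 2.39 ± 0.40 on the log2 scale in ectoderm (adjusted p = 0.000240). By the same edgeR test VIM also rose in mesoderm (1.92, adjusted p = 0.000579). SNAI1, a repressor related to SNAI2, had 7 and 9 reads (hPSC), 6 and 3 (ectoderm), 40 and 36 (endoderm) and 5 and 4 (mesoderm). SNAI1 was highest in endoderm, the group with the fewest CDH1 reads, and a link between the 2 genes was not tested. FN1, or fibronectin, was highest in mesoderm, with a rise of 6.45 ± 0.42 (adjusted p = 6.94e-08). By the same edgeR test FN1 also rose in endoderm (3.36, adjusted p = 1.26e-05) and fell in ectoderm (-1.10, adjusted p = 0.0221). COL1A1, COL3A1 and LUM were also highest in mesoderm, and CDH1 and CDH3 rose there too. Members and lists were chosen with results of these libraries known, so these counts describe the libraries and are not independent evidence of a direction.

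**Figure D5:**
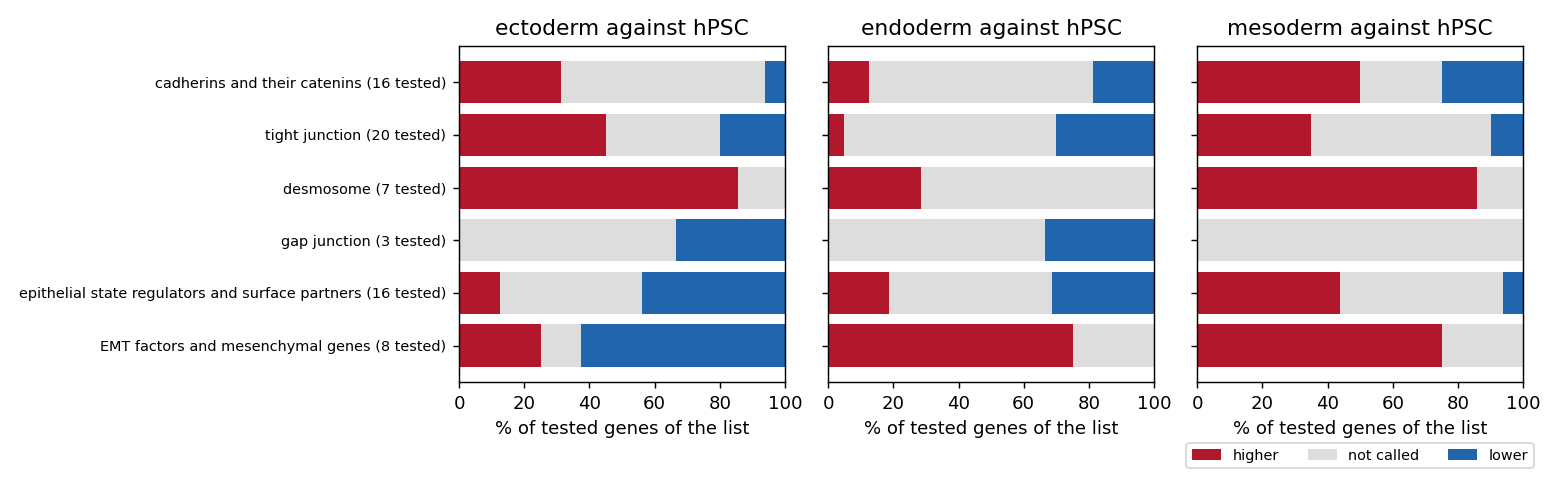
Percent of the tested genes (x axis) of each list (y axis) that were higher (red), not called (grey) or lower (blue) against hPSC, in ectoderm, endoderm and mesoderm. Desmosome genes have 6 of 7 higher in ectoderm and in mesoderm, and EMT factors and mesenchymal genes have 5 of 8 lower in ectoderm (1 without ectoderm repeat 2) and 6 of 8 higher in endoderm and in mesoderm.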

How the data were processed

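Deposited tables hold whole counts of reads for each transcript of a combined assembly, the same for each group, and CPM. The CPM values the authors deposited matched the counts and served as a check. The 2 deposited endoderm columns were entered here under expected counts but hold whole raw counts, and nothing was rounded. The submitters' processing notes name minimap2, StringTie and GRCh38 (hg38). Versions and the counting of shared reads are not given in the sources used here. Gene counts are sums over the transcripts named for a gene. Long molecules are counted once each, so counts were not divided by length except in shares per kilobase.

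The test was that of edgeR 4.0.16, run in R 4.3.3 (TMM, filterByExpr with a minimum count of 10, 1 quasi-likelihood fit of all 8 libraries, two-sided, Benjamini-Hochberg adjustment at 0.05 over all genes). SE is the log2 fold change divided by the square root of F. Transcript choice used diffSpliceDGE. Alternatives included DESeq2 1.42.0, other scalings and filters, each library left out, and, chosen after the data were seen, library totals and removal of trends on length or GC content. Fits were tested on simulated data. The members and lists were chosen with earlier results of these data known. Named genes were all members, the 3 genes most like each, transcripts with at least 10% of a gene's reads, and, from up to the 2 highest and 2 lowest called genes per list and layer whose higher group reached 10 CPM in each library, those described.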

Additional observations from a re-analysis of the deposited data

Results flagged for a closer look

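CDH1 moved in opposite directions from hPSC in endoderm and mesoderm, and the direct comparison of these layers gave a log2 fold change of -3.03 ± 0.31 (SE, endoderm against mesoderm, adjusted p = 3.52e-06). CDH3 fell in ectoderm and rose in mesoderm, with -2.36 ± 0.30 for ectoderm against mesoderm (adjusted p = 2.98e-05). GJA1 rose in endoderm and fell in mesoderm, with 4.25 ± 0.45 for endoderm against mesoderm (adjusted p = 4.45e-06). Each pair of layers shares the hPSC libraries. Transcripts inside ZEB2 introns without a gene name, left out of the gene total, had 27 reads in ectoderm and 0 in every other library.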

How the results depend on the processing

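Of the 60 results of the 10 genes in the 6 comparisons, 41 were called. Of these, 32 stayed called under each of the 19 alternatives that applied, 9 were lost under some, and 9 others were gained under some. No result that reversed was called in either fit, and the causes were not tested. With the length trend removed, ectoderm against hPSC was -0.39 for CDH1, 0.089 for EPCAM and 0.0489 for GJA1, ectoderm against endoderm was 0.53 for EPCAM, and ectoderm against mesoderm was -0.17 for TJP1. GJA1 in ectoderm against hPSC was 0.0749 with upper-quartile scaling, 0.14 without a filter, 0.0395 with the 2 groups alone, 0.12 with matching transcripts, 0.0481 with all listed transcripts, 0.36 with library totals, 0.0343 without hPSC repeat 2, and -0.55 to 0.54 over all left-out libraries. EPCAM in endoderm against hPSC ran from -0.93 to 0.61 over the left-out libraries. In ectoderm against endoderm, library totals gave 0.19 for CDH3 and 0.15 for EPCAM, the GC trend removed gave 0.17 for CDH3, and EPCAM ran from -1.13 to 0.10 over the left-out libraries. TJP1 in ectoderm against mesoderm was -0.0508 with the GC trend removed.

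DESeq2 called 3356, 1836 and 2315 genes in ectoderm, endoderm and mesoderm against hPSC and 2015 in ectoderm against mesoderm, where edgeR called 5275, 2943, 3815 and 3846. It called 2899, 1606 and 2133 transcripts against 5711, 3331 and 4080. With the 2 groups alone, mesoderm against hPSC had 2470 genes. Leaving out each library, with the lone repeat assumed to vary like the other groups, gave 3290 to 5938, 1450 to 4072 and 2006 to 5087 genes for the layers against hPSC, 5322 to 5791 in ectoderm against endoderm, 1775 to 2336 in ectoderm against mesoderm and 3382 to 3762 in endoderm against mesoderm. It gave 3608 to 7315, 1573 to 4819 and 2178 to 6163 transcripts, and 13 to 306, 24 to 228 and 38 to 306 genes with changed transcript choice. The span of the TJP1 exon share between groups was 29.2 to 36.4 percentage points. Per kilobase, CDH1 was 95.3%, 86.8% and 23.0% of CDH1 and CDH2 in hPSC, ectoderm and endoderm, CLDN6 was 84.4% and 81.8% of both claudins in hPSC and endoderm, and CDH1 was 74.1% of CDH1 and CDH3 in ectoderm.

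Correlations of deviations between same-numbered libraries ran from -0.0341 to 0.151, the highest between hPSC and endoderm. With a single difference between repeats in each group, they cannot settle whether repeat numbers paired the libraries. With the replicate block, no call of the 10 genes changed, and 98 genes had changed transcript choice in ectoderm against 148 without it. With 2 libraries a group and few reads of SNAI2, ZEB2, TJP1 and EPCAM, small differences were not detectable at this depth.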

Other observations

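The unnamed intronic transcripts of CDH3 had 28 reads and those of TJP1 20 reads over the 8 libraries, with reads in all 4 groups. A single-exon EPCAM record had 0 and 2 reads (hPSC), 1 and 0 (ectoderm), 0 and 1 (endoderm) and 1 and 1 (mesoderm).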
